A study of Homo sapiens with 12 samples.

Results

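The EGF receptor family, its ligands and the feedback inhibitor *ERRFI1* were followed in Calu-6 lung cancer cells after knockdown of *LAPTM4B*, a lysosomal membrane protein known to act on EGFR trafficking. The list named 10 genes: the receptors *EGFR*, *ERBB2* and *ERBB3*, the ligands *AREG*, *EREG*, *HBEGF*, *TGFA*, *BTC* and *NRG1*, and *ERRFI1*. A gene was taken where a probe set carried its symbol alone, and the probe set with the highest mean over the 12 arrays stood for it. This found 9 of the 10 genes among the 18417 genes that have such a probe set. The tenth, *AREG*, has no symbol in the platform annotation used here. Its 2 probe sets, 8095736 and 8095744, were named from the supplementary tables of the study. Those tables list only probe sets with a p under 0.01 on *LAPTM4B* knockdown in these same arrays. The knockdown and interaction tests of *AREG* are thus not independent of how its probe sets were found. Its serum tests and the spread of its group means use the same arrays, so they are not independent of it either. Both are described beside the other 9 genes.

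Calu-6 is an established human lung cancer line. The 4 groups were cells transfected with an siRNA pool against *LAPTM4B* (siLAPTM4B) and kept without serum (0% FBS), cells transfected with scrambled siRNA (siControl) and kept without serum, siLAPTM4B cells in 10% FBS, and siControl cells in 10% FBS. The cells of every group were lysed for RNA 72 h after transfection, having spent 48 h in their medium, and each group had 3 replicates, which the labels call biological, on Affymetrix Human Gene 1.0 ST arrays. One siRNA pool against the gene and 1 cell line were used, so an effect of the pool on other transcripts cannot be told apart from that of *LAPTM4B*. Every sample is a bulk extract, in which fewer cells with a transcript and less of it per cell cannot be told apart.

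Receptors of this family are membrane tyrosine kinases that pair when a ligand binds and then pass the signal to the ERK, PI3K-AKT and PLC-gamma routes. Most ligands are made as membrane-bound precursors and are released by ADAM proteases, and several ligand genes are themselves switched on by ERK, so that cells can stimulate themselves. The signal is ended by feedback inhibitors such as ERRFI1, which blocks the receptor kinase, and by endocytosis of the receptor and its sorting to the lysosome, the step at which LAPTM4B has been placed.

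The target itself was lower in all knockdown arrays. *LAPTM4B* (probe set 8147503) had 10.45, 10.50 and 10.54 on the log2 scale in siLAPTM4B cells and 11.94, 11.87 and 11.93 in siControl cells without serum, and 10.01, 10.04 and 9.99 in siLAPTM4B cells and 11.76, 11.75 and 11.80 in siControl cells with 10% FBS. These are log2 fold changes of -1.42 (adjusted p = 8.6e-06 in limma) and -1.75 (6.4e-07). Among probe sets with 1 gene symbol, 2.33% were called at an adjusted p under 0.05 on knockdown without serum, 4.08% on knockdown with serum, 20.7% on serum withdrawal in siLAPTM4B cells and 26% on serum withdrawal in siControl cells. The lowest correlation between arrays of a group over the probe sets with 1 gene symbol was 0.998. Signal near the background was judged by 360 probe sets of olfactory receptor genes, whose 95th percentile was 6.86. By this level 6 of 7 measured epithelial markers (*CDH1* was the exception), 6 of 7 mesenchymal markers and 7 of 8 fibroblast markers were above background, against 2 of 5 leukocyte markers and 1 of 5 endothelial markers. The summed linear signal of the epithelial list was 14840 to 15310 in siLAPTM4B cells and 13500 to 13920 in siControl cells without serum, and 15750 to 16280 in siLAPTM4B cells and 14800 to 15030 in siControl cells with 10% FBS. It was thus higher in every siLAPTM4B array than in the siControl arrays of the same medium, the direction of the *EGFR* values below, and its part in them was not tested. A linear sum follows its brightest genes, and the list did not move as one. On knockdown 5 of the 7 genes had a positive and 2 a negative log2 fold change in each medium. Without serum 1 was called, and it was lower (*KRT7*, -0.37), while with serum 1 was called higher. The summed signal of the fibroblast list was lower without serum. It was 1641 to 1729 in siLAPTM4B cells without serum, 1699 to 1749 in siControl cells without serum, 2057 to 2144 in siLAPTM4B cells with 10% FBS and 2286 to 2429 in siControl cells with 10% FBS, and its part in the results was not tested. Gene by gene, 1 of the 8 fibroblast markers was called higher, 2 lower and 5 not called on serum withdrawal in each siRNA group. Over all arrays the sum was 19790 to 21130 for the mesenchymal list, 463.4 to 555.8 for the leukocyte list and 478 to 543.9 for the endothelial list.

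No member found by the rule was called on *LAPTM4B* knockdown in either medium, with log2 fold changes between -0.15 and 0.18. The call depended on the fit: with dim probe sets left out, *EGFR*, *EREG* and *ERRFI1* were called without serum and *TGFA* with serum (9.04% and 14% of probe sets called), and the same genes with a trend of variance on intensity and a robust prior (5.79% and 8.66%). Dim in this setting means a mean under 8.47, the median of probe sets with 1 symbol. It kept 9730 of those 19460 probe sets and dropped *ERBB3*, *BTC* and *NRG1*. Serum withdrawal called 2 of the 9 members in siLAPTM4B cells (*HBEGF* higher, *TGFA* lower) and 3 of the 9 in siControl cells (*HBEGF*, *EREG* and *ERRFI1*, all higher). *AREG*, tested over all 33252 probe sets, was also higher without serum in siControl cells, at 1.54 and 1.71 times the level with serum by its 2 probe sets, while its fold was 0.975 and 0.989 in siLAPTM4B cells. At an unadjusted p under 0.05, 3 of the 9 members passed on knockdown without serum (15.1% of probe sets with 1 symbol did), 2 on knockdown with serum (18.2%), 4 on serum withdrawal in siLAPTM4B cells (31.2%) and 3 in siControl cells (36.4%).

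**Figure D1:**
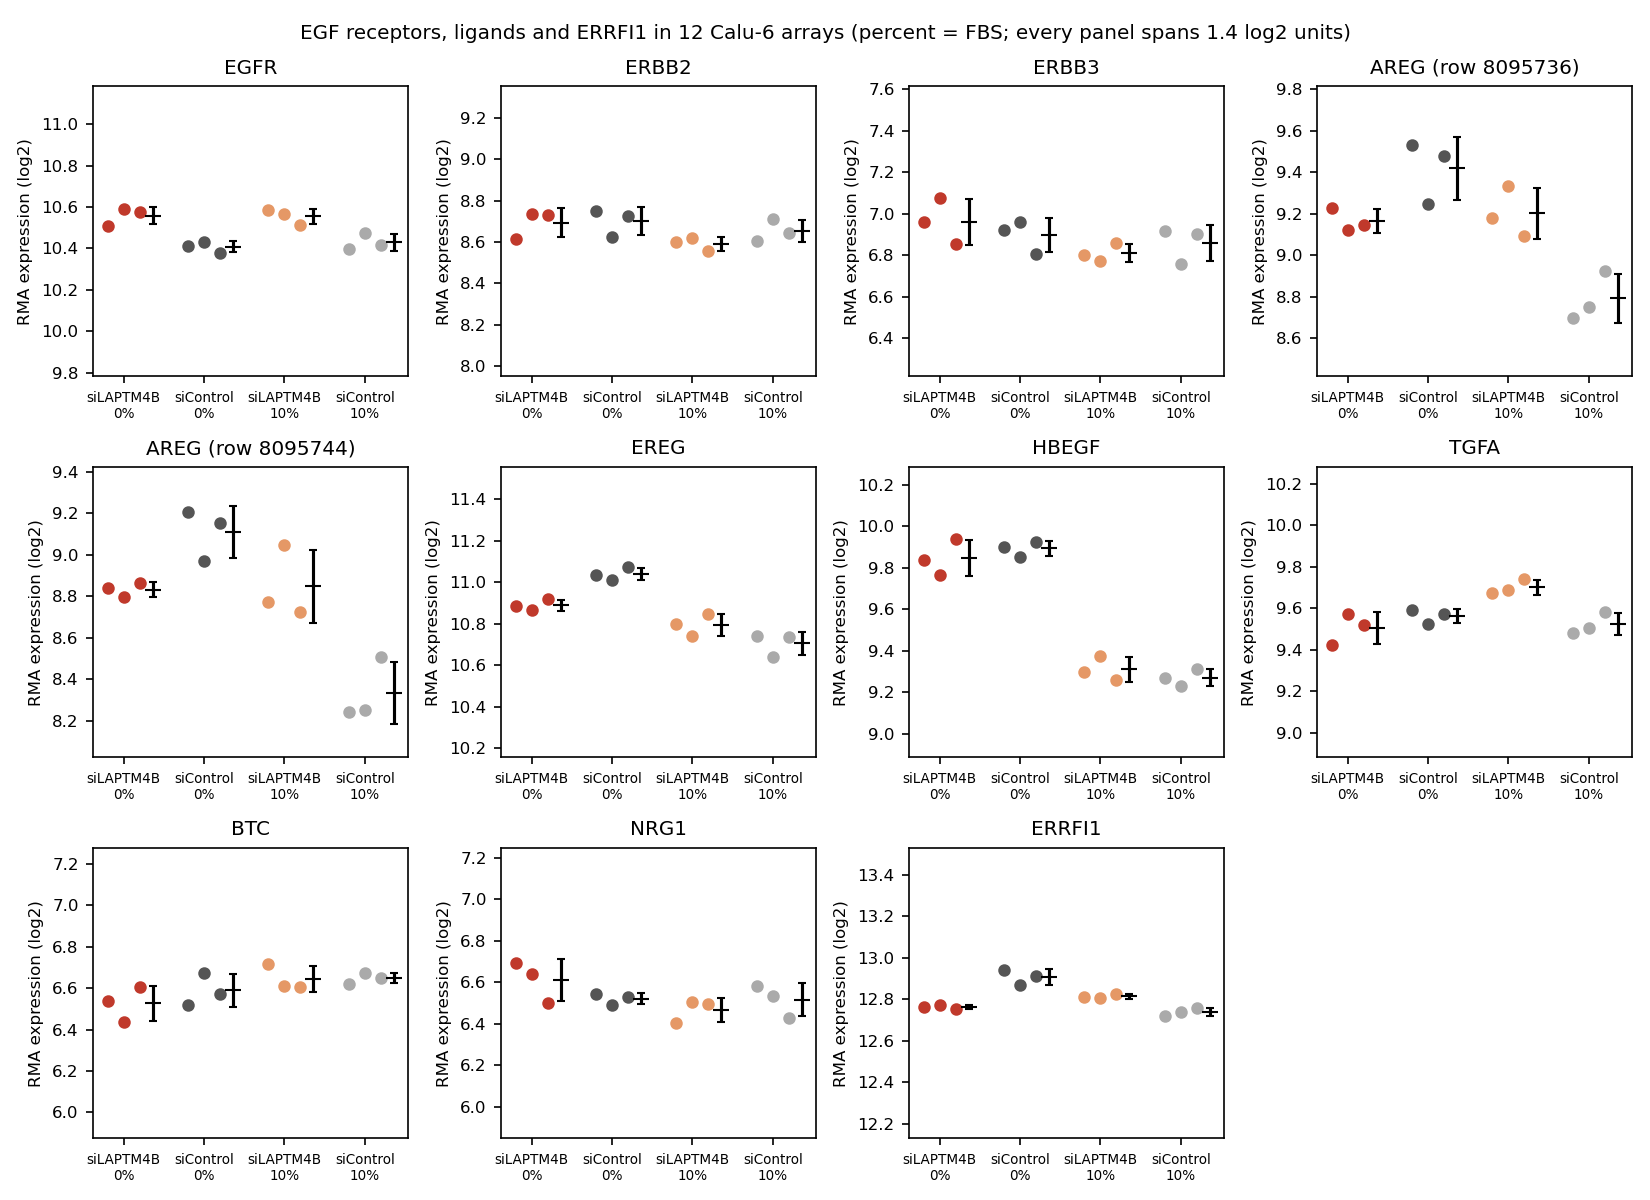
RMA expression (log2) of the 9 members and both *AREG* probe sets in the 4 groups. Each point is an array (replicates 1 to 3 from left to right), the bar beside them is the mean with its SD, and every panel spans the same range. *HBEGF* separates the arrays by serum, *EGFR* by siRNA, and *AREG* is lowest in siControl cells with 10% FBS.

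*EGFR*, the receptor that binds AREG, EREG, HBEGF, TGFA and BTC, was not called on knockdown, but its arrays separated by siRNA in both media. Its values (probe set 8132860) were 10.51, 10.59 and 10.58 in siLAPTM4B cells and 10.41, 10.43 and 10.38 in siControl cells without serum. With 10% FBS they were 10.59, 10.57 and 10.51 in siLAPTM4B cells and 10.40, 10.48 and 10.41 in siControl cells. All siLAPTM4B arrays lay above all siControl arrays of the same medium, and the groups did not overlap. The log2 fold change was 0.15 (standard error 0.044) without serum and 0.12 (standard error 0.047) with serum. Neither passed the test across probe sets (limma, adjusted p = 0.138 and 0.203).

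Groups that do not overlap were common in these data. On knockdown without serum, 21.3% of probe sets with 1 symbol separated the siRNA groups completely, and 3 of the 9 members did (*EGFR*, *EREG*, *ERRFI1*). With 10% FBS the figures were 24.5% and 4 of the 9 members, *TGFA* being added. An exact permutation test of 3 arrays against 3 cannot go below a two-sided p of 0.1, so separation alone decided no call. *EGFR* was not called by serum: withdrawal gave a log2 fold change of 0.0045 in siLAPTM4B cells (95% interval -0.11 to 0.12) and of -0.022 in siControl cells (95% interval -0.12 to 0.074). In order of the group means, the siLAPTM4B groups (10.56 without serum, 10.55 with serum) stood above the siControl groups (10.41 without serum, 10.43 with serum), and within each pair the arrays overlapped.

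*ERBB2*, which has no ligand of its own and serves as the preferred partner of the other receptors, lay between 8.55 and 8.75 on all 12 arrays (probe set 8006906). Its arrays overlapped in every comparison. The log2 fold changes on knockdown were -0.0065 (95% interval -0.13 to 0.12) without serum and -0.061 (95% interval -0.17 to 0.049) with serum. *ERBB3*, a receptor with very weak kinase activity that binds neuregulins, was close to background, with a mean of 6.88 against the olfactory receptor level of 6.86. It ranged from 6.76 to 7.07 (probe set 7956120). Serum withdrawal gave a log2 fold change of 0.15 in siLAPTM4B cells (standard error 0.064, adjusted p = 0.139 in limma) and 0.036 in siControl cells (standard error 0.061, adjusted p = 0.723), neither called. Knockdown gave 0.067 without serum and -0.048 with serum, also not called.

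*AREG* encodes amphiregulin, a ligand of EGFR alone, and among the members it varied most between the group means. Its probe sets came from lists of knockdown calls in these arrays, a choice that can favour such a spread. Both probe sets target the same gene and are not independent measurements. Probe set 8095736 had 9.23, 9.12 and 9.15 in siLAPTM4B cells and 9.53, 9.25 and 9.48 in siControl cells without serum. With 10% FBS it had 9.18, 9.34 and 9.09 in siLAPTM4B cells and 8.70, 8.75 and 8.93 in siControl cells. The siLAPTM4B arrays thus lay below the siControl arrays without serum and above them with serum, without overlap in either medium. Probe set 8095744 separated the groups in the same way. Its values were 8.84, 8.80 and 8.86 in siLAPTM4B cells and 9.20, 8.97 and 9.15 in siControl cells without serum, and 8.77, 9.05 and 8.72 in siLAPTM4B cells and 8.24, 8.25 and 8.51 in siControl cells with serum.

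The levels of *AREG* had 1 order in both probe sets: siControl without serum highest (9.42 ± 0.15 and 9.11 ± 0.12), then siLAPTM4B with serum (9.20 ± 0.12 and 8.85 ± 0.18), siLAPTM4B without serum (9.17 ± 0.057 and 8.83 ± 0.034) and siControl with serum lowest (8.79 ± 0.12 and 8.33 ± 0.15; SD, n = 3 each). The middle pair, the siLAPTM4B groups, did not differ beyond their spread. On serum withdrawal in siControl cells the log2 fold change was 0.63 (standard error 0.093, adjusted p = 0.0065 in limma) and 0.77 (0.094, adjusted p = 0.0028), against a background of 13.5% of all probe sets called. In siLAPTM4B cells it was -0.037 (0.072) and -0.016 (0.088), neither called, with 10.6% of all probe sets called there.

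On knockdown with 10% FBS, the *AREG* probe sets changed by 0.41 (standard error 0.085) and 0.51 (0.11) on the log2 scale, and without serum by -0.25 (0.081) and -0.28 (0.068). Adjusted over all probe sets these did not pass in limma (adjusted p = 0.0953 and 0.101 with serum, 0.316 and 0.201 without), where 0.839% of all probe sets were called with serum and 0.403% without. When the 2 *AREG* probe sets were instead fitted together with the probe sets that carry 1 symbol, a choice made after the data were seen, the increase on knockdown with serum passed (adjusted p = 0.0265 and 0.0280, with 4.09% of probe sets called). Over all probe sets, the increase with serum also passed for both in a fit of all 12 arrays (adjusted p = 0.0320 and 0.0182, 3.04% called), with dim probe sets left out (0.0226 and 0.0259, 8% called) and with the trend and robust prior (0.0405 and 0.0485, 2.43% called). Without serum, the decrease of probe set 8095744 passed with dim probe sets left out (adjusted p = 0.0499, 4.25% called). The calls of *AREG* on knockdown thus depended on the fit. The study itself listed probe set 8095744 as lower on knockdown without serum, at its threshold of a p under 0.01. The comparisons share arrays: the siControl arrays of a medium enter both a knockdown and a serum comparison, so the changes of *AREG* in them are not independent.

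*EREG* encodes epiregulin, which acts through EGFR and ERBB4. It lies beside *AREG* on chromosome 4, where *EPGN*, *EREG*, *AREG* and *BTC* follow each other in the annotation. Its values (probe set 8095728) were 10.89, 10.86 and 10.92 in siLAPTM4B cells and 11.03, 11.01 and 11.07 in siControl cells without serum. With serum they were 10.80, 10.74 and 10.84 in siLAPTM4B cells and 10.74, 10.64 and 10.74 in siControl cells. The group means came in the order siControl and siLAPTM4B without serum, then siLAPTM4B and siControl with serum, and no neighbouring groups overlapped, the last pair being apart by less than 0.01. *EREG* was higher without serum in siControl cells by 0.34 on the log2 scale (standard error 0.045, adjusted p = 0.00094 in limma), where 13.2% of probe sets were called higher and 12.9% lower. In siLAPTM4B cells the value was 0.096 (standard error 0.050, adjusted p = 0.239), not called. Knockdown gave -0.15 without serum (adjusted p = 0.125) and 0.089 with serum (adjusted p = 0.426), neither called.

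*HBEGF*, the heparin-binding ligand of EGFR and ERBB4, was the member that followed serum in both siRNA groups. It had 9.84, 9.77 and 9.94 in siLAPTM4B cells and 9.90, 9.85 and 9.93 in siControl cells without serum (probe set 8114572). With serum it had 9.30, 9.38 and 9.26 in siLAPTM4B cells and 9.27, 9.23 and 9.31 in siControl cells. Every array without serum lay above every array with serum, while the siRNA groups overlapped in each medium. The log2 fold change on serum withdrawal was 0.54 (standard error 0.060, adjusted p = 0.00021 in limma) in siLAPTM4B cells and 0.62 (0.043, adjusted p = 2.3e-05) in siControl cells, or 1.45 and 1.54 times the level with serum. Knockdown gave -0.046 without serum (95% interval -0.17 to 0.079) and 0.041 with serum (95% interval -0.074 to 0.16).

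*TGFA* encodes transforming growth factor alpha, a further ligand of EGFR. Its values (probe set 8052872) were 9.42, 9.57 and 9.52 in siLAPTM4B cells and 9.59, 9.53 and 9.57 in siControl cells without serum. With serum they were 9.67, 9.69 and 9.74 in siLAPTM4B cells and 9.48, 9.50 and 9.58 in siControl cells. The siLAPTM4B arrays with serum stood above all other arrays, and the remaining groups overlapped. Serum withdrawal lowered *TGFA* in siLAPTM4B cells, where the log2 fold change was -0.20 (standard error 0.055, adjusted p = 0.034 in limma). Of all probe sets with 1 symbol, 9.74% were called higher and 11% lower there. This call was lost without any single array other than siLAPTM4B 0% FBS replicate 2 (adjusted p up to 0.112). In siControl cells the change was 0.040 (95% interval -0.063 to 0.14). Knockdown with serum gave 0.18 (standard error 0.049, adjusted p = 0.0895), not called.

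The ligands *BTC* (betacellulin, probe set 8101002) and *NRG1* (neuregulin 1, a ligand of ERBB3 and ERBB4, probe set 8145736) were at background. Their means of 6.60 and 6.53 lay under the olfactory receptor level, and the other probe set of *NRG1*, 8145766, had a mean of 5.74. Neither was called in any comparison. *BTC* ranged from 6.43 to 6.72 and *NRG1* from 6.40 to 6.69 over the 12 arrays, and their groups overlapped in every comparison.

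*ERRFI1*, also called MIG6, had one of the brightest signals on the array (probe set 7912157). It had 12.76, 12.77 and 12.75 in siLAPTM4B cells and 12.94, 12.87 and 12.91 in siControl cells without serum. With serum it had 12.81, 12.80 and 12.83 in siLAPTM4B cells and 12.72, 12.74 and 12.76 in siControl cells. As for *AREG*, the siLAPTM4B arrays lay below the siControl arrays without serum and above them with serum, without overlap. *ERRFI1* was higher without serum in siControl cells by 0.17 on the log2 scale (standard error 0.040, adjusted p = 0.016 in limma), and the adjusted p was 0.0533 without siControl 0% FBS replicate 3 and 0.0588 without siControl 10% FBS replicate 2. In siLAPTM4B cells the change was -0.051 (95% interval -0.15 to 0.051). Knockdown gave -0.14 (standard error 0.042, adjusted p = 0.138) without serum and 0.076 (0.043, adjusted p = 0.405) with serum, neither called.

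**Figure D2:**
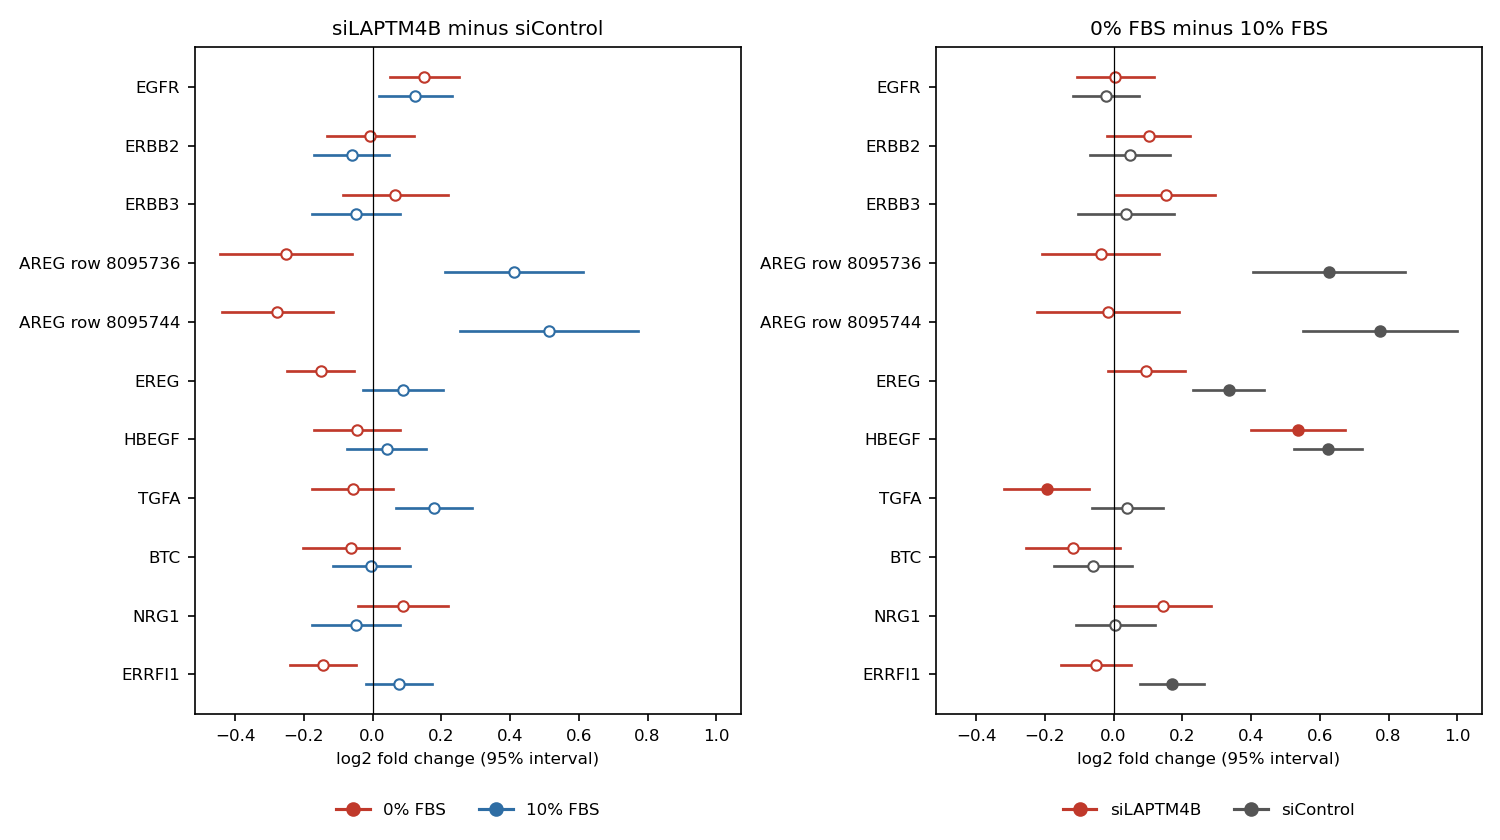
Log2 fold changes with 95% intervals of siLAPTM4B over siControl (left) and of 0% FBS over 10% FBS (right). Filled points passed an adjusted p of 0.05, over all probe sets for *AREG* and over those with 1 symbol for the other genes. No point is filled for knockdown, and *HBEGF* is the member filled in both siRNA groups on serum withdrawal.

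On serum withdrawal, 4 of the 9 members separated the media completely in siLAPTM4B cells (*EREG*, *HBEGF*, *TGFA* and *ERRFI1*), beside 36% of probe sets with 1 symbol, and 3 of the 9 in siControl cells (*EREG*, *HBEGF* and *ERRFI1*), beside 41.1%. The share of members called, 2 of 9 and 3 of 9, was thus near that of all such probe sets. The median log2 fold change of the 9 members was 0.096 in siLAPTM4B cells and 0.040 in siControl cells, against -0.0063 and -0.015 over all genes.

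The 250 bases before the annotated start of the 4 genes that were higher without serum in siControl cells are shown because they are the members whose transcripts moved with serum there. They come from the RefSeq promoter table of GRCh38.p14, which held 8 of the 10 members and none of *ERBB3* and *NRG1*. They are written 5′ to 3′ on the strand of the gene, and capitals mark a match to TGANTCA (AP-1), TGACGTCA (the cyclic AMP response element, CRE) or GGGCGG (the GC box) on either strand. *AREG* is chr4:74444886-74445135 (plus strand), *EREG* chr4:74364895-74365144 (plus strand), *HBEGF* chr5:140346604-140346853 (minus strand) and *ERRFI1* chr1:8026310-8026559 (minus strand).
AREG: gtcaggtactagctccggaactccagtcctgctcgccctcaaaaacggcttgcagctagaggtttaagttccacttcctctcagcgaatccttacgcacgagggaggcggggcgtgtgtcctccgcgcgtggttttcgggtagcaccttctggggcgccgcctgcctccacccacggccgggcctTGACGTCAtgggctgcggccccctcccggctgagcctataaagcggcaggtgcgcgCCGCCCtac
EREG: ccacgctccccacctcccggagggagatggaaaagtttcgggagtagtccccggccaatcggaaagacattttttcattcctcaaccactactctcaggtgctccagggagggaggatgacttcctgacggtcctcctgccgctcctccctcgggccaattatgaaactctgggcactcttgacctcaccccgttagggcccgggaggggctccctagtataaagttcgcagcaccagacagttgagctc
HBEGF: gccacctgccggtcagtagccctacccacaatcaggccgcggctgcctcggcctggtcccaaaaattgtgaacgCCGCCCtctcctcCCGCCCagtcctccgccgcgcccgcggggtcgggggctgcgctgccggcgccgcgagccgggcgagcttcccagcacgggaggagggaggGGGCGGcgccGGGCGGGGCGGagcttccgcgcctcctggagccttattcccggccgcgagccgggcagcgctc
ERRFI1: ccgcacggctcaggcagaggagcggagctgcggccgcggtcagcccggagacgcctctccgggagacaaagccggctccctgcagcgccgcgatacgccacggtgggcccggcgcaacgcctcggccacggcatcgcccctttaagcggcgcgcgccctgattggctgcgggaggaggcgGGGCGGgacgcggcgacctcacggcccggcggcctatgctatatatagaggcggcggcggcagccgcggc

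The *AREG* window holds 1 CRE, 65 bases before the start, and 1 GC box. Over all 35116 promoters of 300 bases (250 before and 50 after the start), 1.85% hold a CRE, 45% a GC box and 7.71% an AP-1 match. *HBEGF* holds 5 GC boxes, of which 2 share a base, *ERRFI1* holds 1, and the *EREG* window holds none of these motifs. *EREG* and *AREG*, which are neighbours and were both higher without serum in siControl cells, share none of the letters searched here. A match describes the sequence alone, and no binding was measured.

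The effects of knockdown in the media were set against each other by the interaction term of a fit to all 12 arrays. None of the 9 members passed, where 0.262% of probe sets with 1 symbol were called, and 3 had an unadjusted p under 0.05, as did 11% of those probe sets. These were *ERRFI1* (difference of log2 fold changes, 0% FBS minus 10% FBS, -0.22, standard error 0.051, adjusted p = 0.114 in limma), *EREG* (-0.24, standard error 0.062, adjusted p = 0.161) and *TGFA* (-0.24, standard error 0.068, adjusted p = 0.212). The 3 differences ran the same way, with the knockdown effect lower without serum than with it. Over the 9 members, 5 differences were negative and 4 positive. Of the probe sets with 1 symbol that were called, 37 had a negative and 14 a positive difference. *EGFR* differed by 0.026 (95% interval -0.10 to 0.15) and *HBEGF* by -0.087 (95% interval -0.24 to 0.071).

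The largest difference among the 10 members listed was that of *AREG*, at -0.66 (standard error 0.12) and -0.79 (standard error 0.14) by its 2 probe sets. Over all probe sets, of which 0.0511% were called, its adjusted p was 0.126 and 0.105 in limma. Fitted with the probe sets of 1 symbol it was 0.0407 and 0.0316, where 0.283% were called. The same contrast is the serum effect in siLAPTM4B cells minus that in siControl cells, so the call on the unequal serum response of *AREG* in the siRNA groups depended on the fit. It also passed with dim probe sets left out (0.0361 and 0.0275, with 0.476% called). Both probe sets were taken from lists of knockdown calls in these arrays, so these values are not a fresh test.

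**Figure D3:**
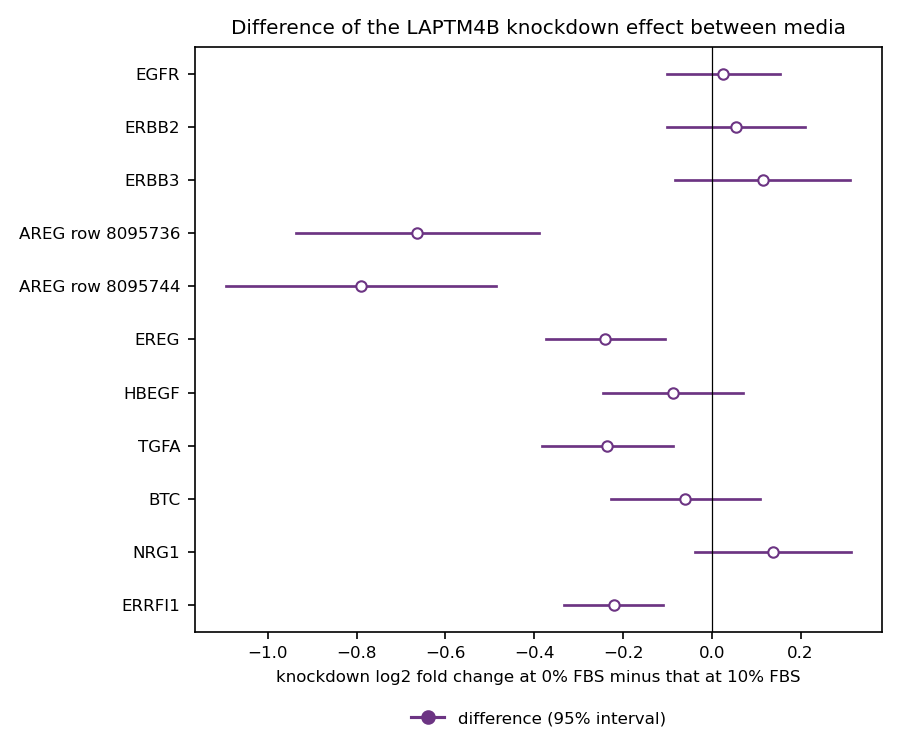
Difference of the knockdown log2 fold change, 0% FBS minus 10% FBS, with its 95% interval. Open points did not pass an adjusted p of 0.05. Both *AREG* probe sets, *EREG*, *TGFA* and *ERRFI1* lie below 0 with their whole interval, and the intervals of the 3 receptors hold 0.

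Other members of the family were described from a list. Of 6 further ERBB ligands and receptors, none was called on knockdown, where 2.33% of probe sets with 1 symbol were called without serum and 4.08% with serum. On serum withdrawal, *ERBB4*, the fourth receptor, whose mean of 6.84 lay just under the olfactory receptor level of 6.86, was higher in siLAPTM4B and siControl cells by 0.50 (standard error 0.053) and 0.53 (0.070) on the log2 scale, and *NRG2*, a neuregulin, by 0.43 (0.058) and 0.27 (0.044). *NRG4*, a neuregulin that binds ERBB4, was lower, with -0.86 (0.13) and -0.66 (0.074). *EGF*, *EPGN* and *NRG3* were at background, with means of 6.11, 5.00 and 6.45. *EGF* passed in siLAPTM4B cells at an adjusted p of 0.047 in limma, with a log2 value of 0.18 (standard error 0.055) at this dim level, and not in siControl cells (0.19, standard error 0.082) or in the interaction, and *EPGN* and *NRG3* were not called.

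Of 12 genes for ligand shedding, proteases and their partners and inhibitors, 5 were higher, 1 lower and 6 not called without serum in siLAPTM4B cells, and 6 were higher, 1 lower and 5 not called in siControl cells. Beside them, 20.7% and 26% of probe sets with 1 symbol were called in siLAPTM4B and siControl cells. *ADAM17*, the main sheddase of AREG, EREG, HBEGF and TGFA, was higher by 0.21 (standard error 0.050) in siLAPTM4B and 0.49 (0.038) in siControl cells, and *RHBDF1*, a rhomboid-like partner that carries ADAM17 to the surface, by 0.54 (0.054) and 0.53 (0.053). *TIMP3*, an inhibitor of ADAM17, was lower by serum withdrawal in both and on knockdown in both media (-0.45, standard error 0.043, without serum and -0.51, 0.052, with it). On knockdown 1 gene of the list was higher and 2 lower without serum, and 2 were higher and 1 lower with serum. The share of probe sets with 1 symbol called there was 2.33% and 4.08%. Knockdown lowered *ADAM17* without serum (-0.22, standard error 0.042, adjusted p = 0.039 in limma) and raised *ADAM19* in both media (0.55 and 0.64).

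Of 38 measured genes for receptor endocytosis and down-regulation, 3 were higher and 11 lower without serum in siLAPTM4B cells, and 4 were higher and 11 lower in siControl cells. Over all probe sets with 1 symbol, 20.7% and 26% were called. *LRIG1*, a membrane protein that promotes receptor degradation, was higher by 0.66 (standard error 0.064) and 0.67 (0.045). *STAM*, an endosomal sorting protein, was lower, with -0.51 (0.046) and -0.37 (0.037), and *AP2M1*, a subunit of the clathrin adaptor, was lower too, with -0.23 (0.051) and -0.30 (0.038). On knockdown, 1 of these genes was called without serum (*SOCS5*, -0.26) and 2 with serum (*CBLB*, a ubiquitin ligase, -0.20, and *SPRY2*, 0.27). Among probe sets with 1 symbol, 2.33% and 4.08% were called there. The median log2 fold change of the list on knockdown was -0.0068 without serum and -0.017 with serum, against 0.0065 and 0.0045 over all genes.

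Among 28 measured adaptors and cytoplasmic relay genes, *GAB1*, a docking protein downstream of EGFR, was the gene called on knockdown, and it was lower in both media (-0.46, standard error 0.072, without serum and -0.30, 0.059, with serum). Of 29 measured genes that ERK induces, 1 was higher and 5 lower on knockdown without serum, and 3 were higher and 3 lower with serum. Knockdown called 2.33% of probe sets with 1 symbol without serum and 4.08% with serum. Serum withdrawal raised 17 and lowered 3 of the ERK-induced genes in siLAPTM4B cells, and raised 19 and lowered 7 in siControl cells, with medians of 0.26 and 0.43 against -0.0063 and -0.015 over all genes. It called 20.7% and 26% of probe sets with 1 symbol. *FOS*, an immediate early transcription factor, rose by 0.79 (standard error 0.061) in siLAPTM4B and 1.70 (0.10) in siControl cells, and *DUSP1*, an ERK and stress-kinase phosphatase, by 0.71 (0.051) and 0.99 (0.052). The smaller *FOS* value in siLAPTM4B cells passed the interaction (-0.90, standard error 0.13, adjusted p = 0.0096 in limma), as did that of *EGR1* (-0.48, standard error 0.086, adjusted p = 0.042). *PLAU*, the gene for urokinase, passed it the other way (0.89, standard error 0.061, adjusted p = 6.1e-05), with a knockdown value of 0.43 (standard error 0.051) without serum and -0.46 (0.043) with it. Of 15 proliferation genes, 7 were lower and 8 not called without serum in each siRNA group, and none was called on knockdown, beside the same shares of probe sets with 1 symbol. On knockdown with serum all 15 had a positive log2 fold change (median 0.048), as did 9583 of all 18417 genes (median 0.0045). Without serum 9 of the 15 were positive and 6 negative. The part of growth rate in the serum and knockdown results was not tested.

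**Figure D4:**
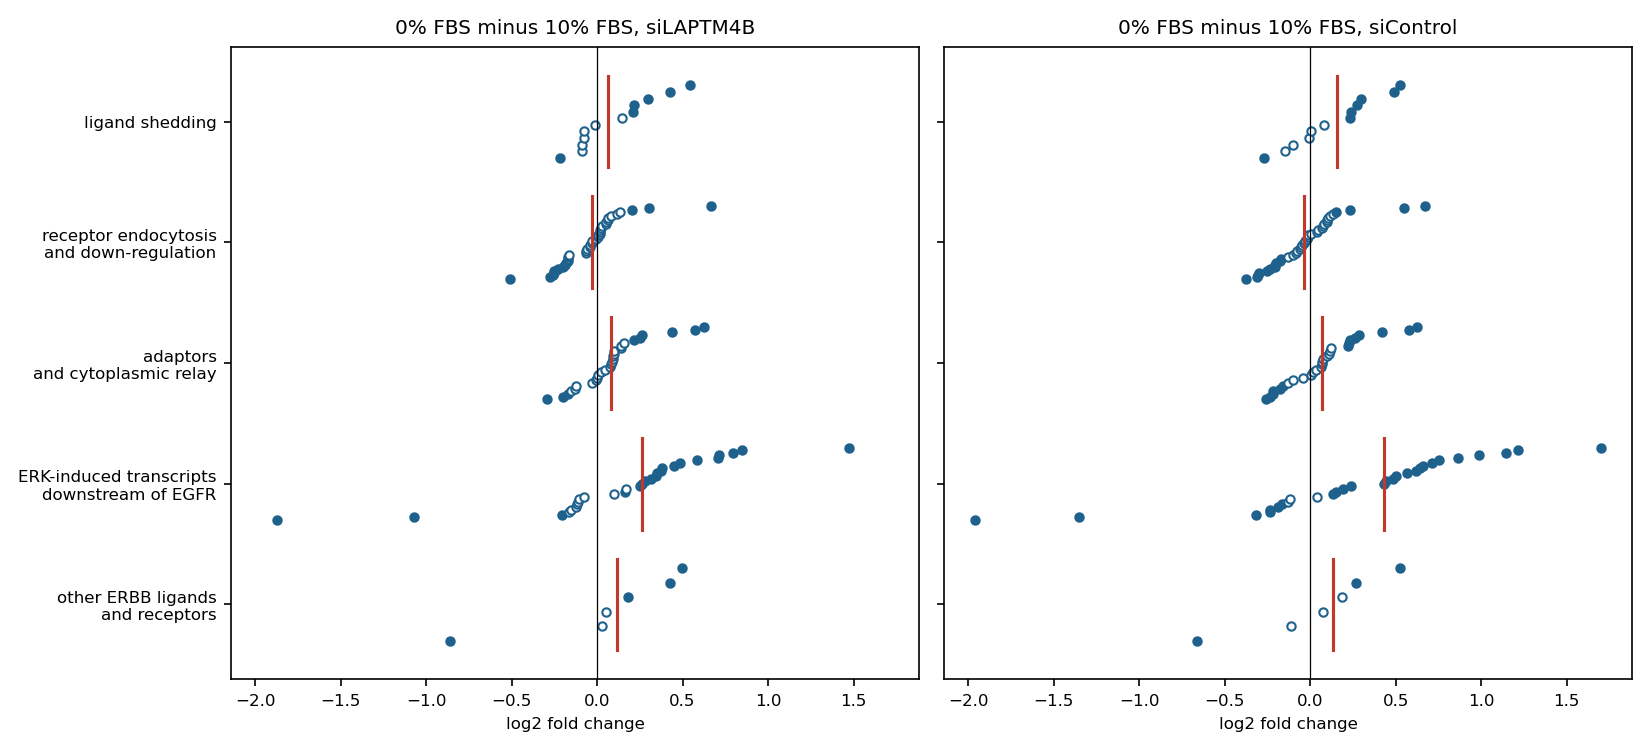
Log2 fold changes on serum withdrawal in siLAPTM4B (left) and siControl cells (right) for 5 lists. Each point is a gene, filled where its adjusted p was under 0.05, and the red line is the list's median. Genes that ERK induces have medians of 0.26 and 0.43, while endocytosis genes are centred near 0.

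Genes with the pattern most like that of a member were found as those with the smallest root mean square difference over the 12 arrays, each gene centred on its own mean. For the *AREG* probe set with the higher mean they were *LDAF1* (0.120 on the log2 scale), *DNAJA4* (0.123), *SYNM* (0.125), *ZNF136* (0.127) and *APH1B* (0.128). For *HBEGF* they were *FBXO38* (0.0511), *STK39*, *CADM4*, *BCL2L11* and *SQOR* (0.0546). For *EREG* they were *SOCS2* (0.0469), *PTPRR*, *LPCAT3*, *ANKLE1* and *B3GALNT2* (0.0535). The arrays share their normalization, and likeness is a description.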

How the data were processed

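The authors ran RMA, which corrects background, equalizes the arrays by quantiles and summarizes probes, in BRB-ArrayTools and deposited its log2 output, per the labels and the methods. The probe set level and annotation are not given in the sources used here. All 12 arrays were used, with 0 unmapped columns. No depth applies to arrays, whose number limits the precision.

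Each comparison was a limma 3.58.1 fit (R 4.3.3) of its 6 arrays, and the interaction one of all 12. The Benjamini-Hochberg adjustment ran over the 19460 probe sets with 1 gene symbol, or over all 33252 for *AREG*, and called under 0.05. The scripts were tested on simulated data. Replicate numbers were checked as pairs by the correlation of deviations from the group means. All 3 pairs were over 0.1 between the siControl media (0.37, 0.13 and 0.20), and not in the knockdown comparisons or between the siLAPTM4B media. The members and lists were chosen with earlier results of these data known. Named genes were the members, *LAPTM4B* and up to 4 called genes per list, direction and comparison with the smallest adjusted p, and the 5 genes most like each of the 3 members whose group means span most. *EPGN*, *NRG3* and *CDH1* were named for their role. Alternatives were the fit, its probe sets, the test, scaling, the replicate block and leaving out each array. A planned search for an EGF motif in proteins was not run.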

Additional observations from a re-analysis of the deposited data

Results flagged for a closer look

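Among the members and the target, *AREG* and *LAPTM4B* had a knockdown effect that differed between the media in limma over the 12 arrays, each under some fits and not others. The effect on *AREG* was lower by 0.66 (probe set 8095736, a difference of -0.663) and 0.79 (probe set 8095744, a difference of -0.791) without serum than with it, with an adjusted p of 0.0407 and 0.0316 where its probe sets were fitted with those of 1 gene symbol, and of 0.126 and 0.105 over all probe sets. *LAPTM4B* itself differed by 0.332 (standard error 0.056, adjusted p = 0.0345 over probe sets with 1 symbol and 0.0947 over all), being 10.49 in siLAPTM4B and 11.91 in siControl cells without serum and 10.01 in siLAPTM4B and 11.77 in siControl cells with 10% FBS. The depth of knockdown was thus not the same in the media, and its part in the differences of *AREG* was not tested. The *AREG* probe sets came from lists of knockdown calls in these arrays, so their test is not independent of that choice.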

How the results depend on the processing

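Of 1025 values that 55 results gave under the alternatives, 942 kept their direction and side of the threshold, 11 lost and 51 gained a call, and 21 changed sign, none of them called. On knockdown without serum, 1 member passed in a fit of all 12 arrays (*ERRFI1*), 3 with dim probe sets left out (*EGFR*, *EREG*, *ERRFI1*), the same 3 with an intensity trend and robust prior, and again these 3 at an unadjusted p under 0.01 by limma or an ordinary t-test of each probe set. On knockdown with serum these counts were 1, 1, 1, 1 (limma) and 2 (t-test). Of all probe sets tested, 3.53% and 7.04% passed in the 12-array fit without and with serum, 6.63% and 8.09% at an unadjusted p under 0.01 by limma, and 5.35% and 6.68% by the t-test. On serum withdrawal in siLAPTM4B cells, 1 passed over all probe sets and 1 with the prior from all probe sets (chosen after seeing the data), *TGFA* being lost (adjusted p = 0.0747 and 0.0549). By the ordinary t-test *TGFA* was lost (adjusted p = 0.0846) and *ERRFI1* gained (0.0342), also at an unadjusted p under 0.01. In the interaction, 1 passed with dim probe sets left out (1.1% of all those tested passed), 2 with the trend and robust prior (0.838%), 1 by the adjusted t-test (0.139%) and 3 at an unadjusted p under 0.01 by limma (3.5%) or the t-test (3.61%). Leaving out an array gave 0 on knockdown and interaction, 1 to 2 on serum withdrawal in siLAPTM4B cells and 2 to 3 in siControl cells. Over the probe sets with 1 symbol, calls on knockdown without serum numbered 454, against 27 by the adjusted t-test and 1291 at an unadjusted p under 0.01 by limma, and with serum 793, against 177 by the adjusted t-test and 1686 with the trend and robust prior. A replicate block gave 0, 0, 2, 3 and 0 members, the counts of the unblocked fits, and changed no other call of a member.

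Changes of sign were of values near 0. Quantile normalization again gave *ERBB2* 0.0012 (knockdown without serum) and *BTC* 0.0021 (with serum), where centring arrays on their median gave *BTC* 0.011. The other *NRG1* probe set gave -0.055 and the mean of both -0.025 on serum withdrawal in siControl cells. Leaving out an array gave -0.045 to 0.034 for *ERBB2*, -0.039 to 0.016 for *BTC*, -0.017 to 0.029 (siLAPTM4B) and -0.037 to 0.0014 (siControl) for *EGFR* on serum withdrawal, -0.092 to 0.030 and -0.078 to 0.084 for *AREG* in siLAPTM4B cells, and -0.038 to 0.039 for *NRG1* and -0.014 to 0.082 for *ERBB3* in siControl cells. The cause was not tested. With 3 arrays a group, 1 pool and 1 line, small changes of dim genes (*BTC*, *NRG1*, *ERBB3*) limit what could be seen.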
